A study of Mus musculus with 4 samples.

Results

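The 9 genes described here, Dusp1, Dusp2, Dusp4, Dusp5, Dusp6, Dusp7, Dusp8, Dusp10 and Dusp16, encode MAP kinase phosphatases, and their chromatin was examined in mouse keratinocytes by ATAC-seq, an assay that marks open DNA by where a transposase (Tn5) can insert adapters. A region is a merge of the peaks of all 4 libraries wherever they overlapped by at least 1 bp, and a region was assigned to a gene when it overlapped the gene body or the 25 kb on either side. This gave 71 regions of 82641 in all. The 2 WT and 2 Mapk8-KO libraries came from epidermal cells sorted as EpCam+ CD49f high from the skin of adult female C57BL/6 mice, after 8 days of daily Aldara, an imiquimod cream that inflames the skin, which both genotypes received. In Mapk8-KO mice a floxed Mapk8 gene, which encodes the kinase JNK1, is deleted by a Cre driven by the keratin 14 promoter, so the deletion is limited to epithelial cells that use this promoter, whereas other skin cells keep the gene. Per the study's methods the samples of a genotype are independent, but no untreated skin is among them and the comparison is WT against Mapk8-KO within inflamed skin.

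MAP kinases (ERK, JNK and p38) are switched on by phosphorylation of a threonine and a tyrosine in their activation loop, and MAP kinase phosphatases switch them off by removing both phosphates. Many of these phosphatase genes are themselves induced by the kinases they inactivate, which makes them feedback regulators. Dusp1, Dusp2, Dusp4 and Dusp5 encode the inducible nuclear enzymes, Dusp6 and Dusp7 encode cytoplasmic enzymes selective for ERK, and Dusp8, Dusp10 and Dusp16 encode enzymes that prefer JNK and p38.

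The results below refer to several regions by sequence. The promoter windows of Dusp1, Dusp5, Dusp8 and Dusp10 run from 250 bases before to 50 bases after the gene's start and were taken from RefSeq on GRCm38.p6, the assembly that mm10 denotes. They are shown because the Dusp5 promoter is a region that ranked higher in Mapk8-KO, those of Dusp1 and Dusp8 hold cyclic AMP response elements, and that of Dusp10 was the most open. All are written 5′ to 3′ on the strand of the gene, and capitals mark a cyclic AMP response element (CRE, TGACGTCA) or a CArG box, the core of the serum response element.
Dusp1 promoter, chr17:26508423-26508722, minus strand: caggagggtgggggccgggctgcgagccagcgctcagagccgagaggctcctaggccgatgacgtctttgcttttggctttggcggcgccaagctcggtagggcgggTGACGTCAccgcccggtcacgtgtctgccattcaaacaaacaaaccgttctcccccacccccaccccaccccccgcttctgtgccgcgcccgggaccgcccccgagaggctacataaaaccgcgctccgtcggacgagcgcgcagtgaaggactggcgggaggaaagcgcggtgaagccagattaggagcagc
Dusp5 promoter, chr19:53528895-53529194, plus strand: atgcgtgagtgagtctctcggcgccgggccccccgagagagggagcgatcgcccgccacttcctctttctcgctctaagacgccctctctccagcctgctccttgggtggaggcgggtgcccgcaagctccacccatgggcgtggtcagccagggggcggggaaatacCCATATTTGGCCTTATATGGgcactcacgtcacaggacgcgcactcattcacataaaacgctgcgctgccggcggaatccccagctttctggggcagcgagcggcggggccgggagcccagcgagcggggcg
Dusp8 promoter, chr7:142095235-142095534, minus strand: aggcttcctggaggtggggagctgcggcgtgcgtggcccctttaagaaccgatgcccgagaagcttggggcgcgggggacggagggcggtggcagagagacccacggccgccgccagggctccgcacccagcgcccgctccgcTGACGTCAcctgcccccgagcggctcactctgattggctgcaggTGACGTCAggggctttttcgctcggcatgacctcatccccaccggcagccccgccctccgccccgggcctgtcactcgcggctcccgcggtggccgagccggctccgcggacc
Dusp10 promoter, chr1:184034131-184034430, plus strand: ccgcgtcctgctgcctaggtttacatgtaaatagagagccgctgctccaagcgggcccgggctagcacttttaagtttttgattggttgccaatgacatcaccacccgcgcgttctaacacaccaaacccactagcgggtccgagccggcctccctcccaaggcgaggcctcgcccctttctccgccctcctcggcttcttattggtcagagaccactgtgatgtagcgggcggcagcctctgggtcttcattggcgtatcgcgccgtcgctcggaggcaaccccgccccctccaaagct

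Outside promoters, 151 bases around the strongest summit are shown for the only region called in both libraries of one genotype and neither of the other, the second region that ranked higher in Mapk8-KO, and the 3 regions with an AP-1 motif (TGACTCA on either strand, in capitals) that ranked first by fold enrichment among their gene's regions outside its promoter. Summit sequences were read from the same assembly on the strand of the gene.
Dusp4 intron, chr8:34816212-34816362, plus strand: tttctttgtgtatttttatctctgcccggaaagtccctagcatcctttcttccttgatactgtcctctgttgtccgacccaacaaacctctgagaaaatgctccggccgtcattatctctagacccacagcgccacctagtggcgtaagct
Dusp16 intron, chr6:134751634-134751784, minus strand: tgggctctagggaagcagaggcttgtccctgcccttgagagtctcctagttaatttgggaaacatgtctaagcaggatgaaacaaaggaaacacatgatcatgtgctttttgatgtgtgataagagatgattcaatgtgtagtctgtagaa
Dusp1 distal, chr17:26549501-26549651, minus strand: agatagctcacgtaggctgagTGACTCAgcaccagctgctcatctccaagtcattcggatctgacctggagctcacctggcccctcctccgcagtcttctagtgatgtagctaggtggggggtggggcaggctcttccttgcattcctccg
Dusp5 intron, chr19:53537253-53537403, plus strand: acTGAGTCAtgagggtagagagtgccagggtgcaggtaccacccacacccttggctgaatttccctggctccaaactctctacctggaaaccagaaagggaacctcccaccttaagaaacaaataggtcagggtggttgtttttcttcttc
Dusp7 distal, chr9:106345288-106345438, plus strand: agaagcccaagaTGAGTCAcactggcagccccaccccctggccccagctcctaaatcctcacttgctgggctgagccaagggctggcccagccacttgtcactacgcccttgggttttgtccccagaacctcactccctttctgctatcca

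Each genotype had a deeper and a shallower library. With WT 1 set to 1, relative depth was 1.12 in Mapk8-KO 1 but 0.694 in WT 2 and 0.646 in Mapk8-KO 2, as the median over regions called in all libraries of the ratio of summit pileups, the number of fragments stacked at a peak's highest point. Defining promoters of keratinocytes (Krt5, Krt14, Trp63, Itga6, Epcam and Itgb4) had a peak within 2 kb in 6 of 6 cases in WT 1, WT 2 and Mapk8-KO 1 and in 5 of 6 in Mapk8-KO 2, where Krt5 had none. The highest pileup at Krt14, the gene whose promoter drives the Cre, was 38 and 17 in WT against 199 and 109 in Mapk8-KO. None of 4 myeloid and Langerhans cell promoters had a peak in any library, and of the 3 T cell promoters only Trac had one. All 3 melanocyte promoters had a peak in every library, with a summed highest pileup of 159 to 222 fragments in WT and 185 to 280 in Mapk8-KO. Of the 3 fibroblast promoters 2 had a peak in every library, and of the 3 endothelial promoters 2 had one in WT 1, WT 2 and Mapk8-KO 1 and 1 in Mapk8-KO 2. The part of any of these cell types in the values that follow was not tested.

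All 9 phosphatase genes had a promoter region called in every library. Of their 71 regions, 39 (54.9%) were called in all 4 libraries, 13 in 3, 9 in 2 and 10 in 1, against 48.6% called in all 4 over the whole atlas. Dusp1 had the most regions, 17, of which 6 were called in all libraries, but its annotated body includes a long transcript that widens its window to 106.5 kb. Dusp7 had 12 regions with 8 in all libraries, Dusp16 had 10 with 6, Dusp5 had 9 with 6, and Dusp10 had 7 with 4. Dusp6 and Dusp8 each had 6 regions with 3 in all libraries, whereas Dusp2 and Dusp4 had only 2 regions each. For 38 of the 71 regions the nearest transcription start site (TSS) was that of the phosphatase gene itself, and the start of another gene was nearer to the other regions.

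**Figure D1:**
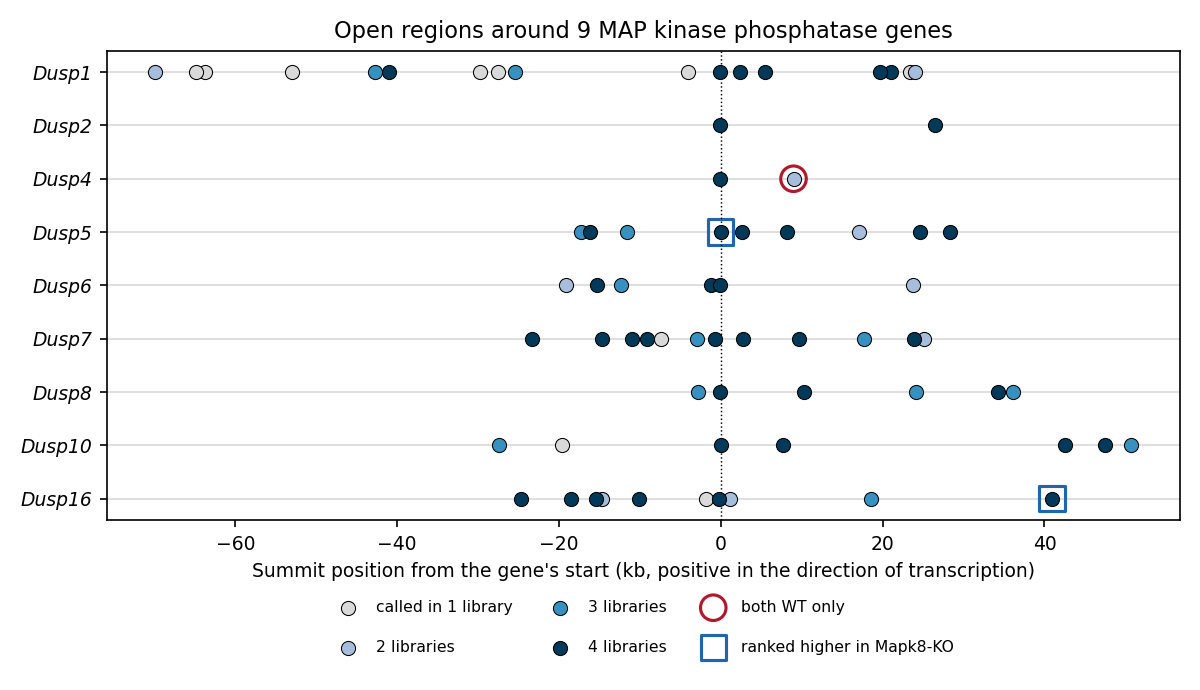
Each point is the strongest summit of a region, placed by its distance from the start of its gene in kb and shaded by the number of libraries that called it. Dusp2 and Dusp4 show 2 regions each and Dusp1 shows 17; the circle marks the intronic Dusp4 region called in both WT libraries only, and the squares mark the Dusp5 promoter and the intronic Dusp16 region that ranked higher in Mapk8-KO.

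The number of phosphatase regions called was higher in the deeper library of each genotype. WT 1 called 67 of the 71 regions, WT 2 called 51, Mapk8-KO 1 called 61 and Mapk8-KO 2 called 44. These are 94.4, 71.8, 85.9 and 62.0% of the phosphatase regions, in that order, against 83.8, 65.2, 83.2 and 59.1% of the atlas. Both deeper libraries were thus above both shallower ones, and the genotypes overlapped. The means were 59 ± 11.3 regions in WT and 52.5 ± 12.0 in Mapk8-KO (SD, n = 2), a difference of 6.5 that is smaller than either SD. With 2 libraries a genotype the smallest p an exact permutation test can give is 0.333, so no such difference could pass 0.05. Mapk8-KO 2, the shallowest library, was the only one to miss 9 regions called in the other 3, or 12.7% of the phosphatase regions against 9.91% of the atlas. WT 1 alone called 8 regions, 11.3% against 9.08% of the atlas, among them 6 of the 7 Dusp1 regions found in a single library.

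A single phosphatase region was called in both WT libraries and in neither Mapk8-KO library, against 2.17% of all regions, and none showed the reverse, against 1.65%. The WT region lies in an intron of Dusp4, at chr8:34816263-34816520 and 8990 bp downstream of the start. Its summit pileup was 16 fragments in WT 1 (exact Poisson 95% interval 9.15 to 25.98) and 12 in WT 2 (6.20 to 20.96), intervals that cover counting error only. These are low values, since the lowest pileup of any called peak was 8 to 10 fragments across the libraries. The lists hold no value for a region that was not called, so a difference from Mapk8-KO could not be measured. The sequence around its summit held no AP-1, CRE, ETS or CArG match.

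The promoters of the inducible nuclear phosphatases had moderate pileups. At Dusp1, whose product inactivates p38 and JNK as well as ERK, the promoter region (chr17:26508172-26509000) had 58 and 27 fragments in WT and 51 and 46 in Mapk8-KO, and the genotypes overlapped. The log2 difference, WT minus Mapk8-KO, was −0.31 (SE 0.235, adjusted p = 0.655 by limma on depth-centred log2 pileup over all 40159 regions called in every library). Dusp2, best known from activated lymphocytes, had the lowest promoter pileup, with 36 and 24 fragments in WT and 36 and 22 in Mapk8-KO. Its normalised pileup, divided by the library's median over regions called in all libraries, was almost equal at 0.72 ± 0.020 and 0.70 ± 0.047 (SD, n = 2). At Dusp4 the promoter had 81 and 48 fragments in WT and 111 and 58 in Mapk8-KO. Both normalised Mapk8-KO values lay above both WT values there, at 1.99 ± 0.0864 against 1.53 ± 0.171, a log2 difference of −0.38 that did not pass the limma test (adjusted p = 0.437).

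The Dusp5 promoter (chr19:53528755-53529503), which also overlaps an exon of the annotated gene AC137853.2, showed the largest promoter difference among the 9 genes. Dusp5 encodes a nuclear phosphatase specific for ERK. Its pileup was 52 and 45 fragments in WT and 100 and 46 in Mapk8-KO, or 1.19 ± 0.185 and 1.69 ± 0.225 after normalisation. Within each library's own list its fold enrichment, the pileup over the local background, stood at percentile 20.7 and 29.0 in WT and 51.4 and 39.2 in Mapk8-KO. The genotypes did not overlap on either scale, and the gap of 10.2 percentile points was just past the 10 points that defined a ranked difference. The log2 difference was −0.51 (SE 0.207), which did not pass the limma test (adjusted p = 0.298). The region holds the pair of adjoining CArG boxes printed in capitals above, which begin at positions −82 and −72 from the start.

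Among the ERK-selective genes, the Dusp6 promoter (chr10:99262675-99263547) was the second most open of the 9, with 174 and 112 fragments in WT and 198 and 110 in Mapk8-KO. Dusp6 is a classical feedback target of ERK signaling. After normalisation both Mapk8-KO libraries stood at 3.67 and the WT libraries at 3.55 and 3.29, a log2 difference of −0.10 (adjusted p = 0.873 by limma). The Dusp7 promoter followed with 124 and 70 fragments in WT and 147 and 75 in Mapk8-KO, and the log2 difference was −0.19 (adjusted p = 0.73 by limma), with overlapping genotypes.

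Among the genes whose products prefer JNK and p38, the Dusp10 promoter (chr1:184033415-184034877) was the most open of all 9. It had 200 and 161 fragments in WT and 239 and 177 in Mapk8-KO, or 4.41 ± 0.462 and 5.16 ± 1.04 after normalisation. The genotypes overlapped, and the log2 difference was −0.22 (SE 0.166, adjusted p = 0.66 by limma). The Dusp8 promoter had 43 and 49 fragments in WT and 57 and 38 in Mapk8-KO, with equal means of 1.16 and an adjusted p of 0.972 by limma. The Dusp16 promoter had 46 and 47 fragments in WT and 65 and 53 in Mapk8-KO, and its log2 difference of −0.36 did not pass the limma test (adjusted p = 0.551).

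**Figure D2:**
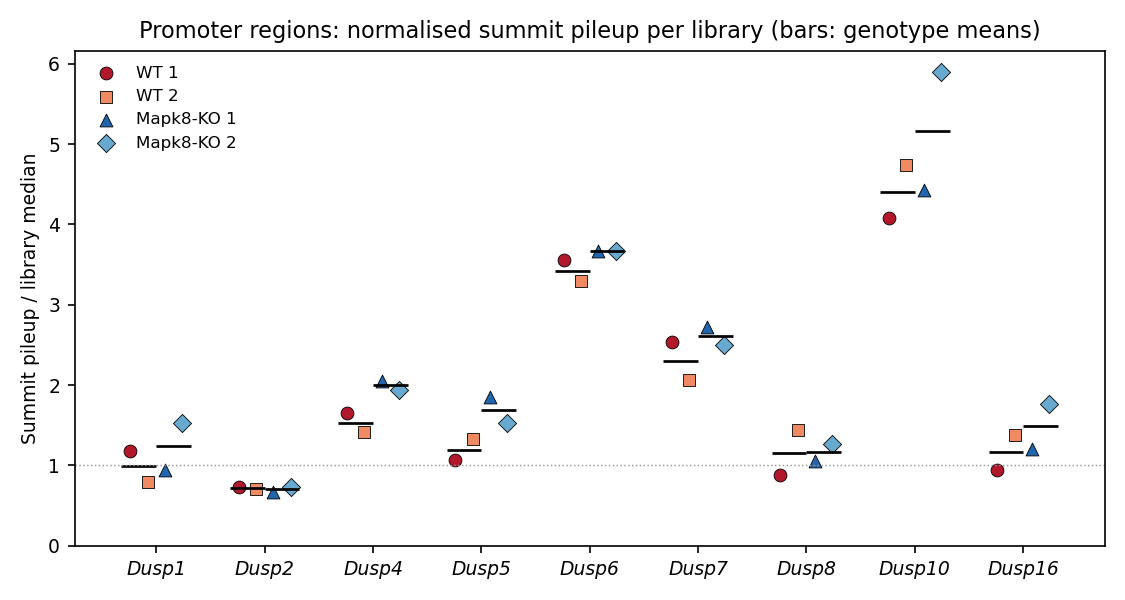
The vertical axis gives the promoter's summit pileup divided by the library's median pileup over regions called in all libraries, and horizontal bars are the means of the 2 libraries of a genotype. Dusp10 stands highest at 4.08 to 5.90 in the 4 libraries, Dusp6 follows at 3.29 to 3.67, and Dusp2 is lowest; at Dusp4, Dusp5 and Dusp6 both Mapk8-KO libraries lie above both WT libraries.

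By mean normalised pileup the promoters ranked Dusp10, Dusp6, Dusp7, Dusp4 and Dusp5 in both genotypes, with Dusp2 last, and neighbours among these first 5 did not overlap within a genotype. The remaining 3, Dusp1, Dusp8 and Dusp16, had WT means of 0.989 to 1.16 with SDs of 0.275 to 0.399, which overlapped each other and Dusp5. The order differed by mean percentile of fold enrichment over the libraries. Dusp10 and Dusp6 were again first at 89.1 and 77.8, but Dusp2 stood at 65.5, Dusp7 at 33.1 and Dusp1 lowest at 19.1. A summit pileup is a height at a point, here the highest of a library's peaks within the region, and no correction for region length was made. The log2 difference was negative, that is higher in Mapk8-KO, at 8 of the 9 promoters. This count fell to 7 with centring on median ratios or quantile normalisation and to 6 on the scale of fold enrichment. Over all regions at promoters 72.6% were higher in Mapk8-KO, and 65.4, 66.5 and 64.0% were under these alternatives, in that order. None of the 9 passed the limma test.

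Outside each gene's own promoter, the region with the highest mean percentile of fold enrichment among those called in every library was taken, which 8 of the 9 genes had and Dusp4 did not. Of these 8 regions, those of Dusp1, Dusp5 and Dusp7 carried an AP-1 motif, the binding sequence of the JUN and FOS family whose JUN members JNK phosphorylates. The Dusp1 region lies 41057 bp upstream and had 61 and 32 fragments in WT and 57 and 39 in Mapk8-KO, at percentiles of 75.9 to 82.8. The intronic Dusp5 region, 8219 bp into the gene, had 69 and 43 fragments in WT and 76 and 54 in Mapk8-KO. The Dusp7 region lies 23269 bp upstream in an intron of Poc1a and had 60 and 32 fragments in WT and 61 and 37 in Mapk8-KO. The Dusp5 and Dusp7 regions rank first by fold enrichment and not by pileup. A Dusp5 region without the motif, 2563 bp into the gene, had 100 and 71 fragments in WT and 129 and 61 in Mapk8-KO. A Dusp7 region without the motif, 9132 bp upstream, had 150 and 97 fragments in WT and 175 and 98 in Mapk8-KO. At all 3 AP-1 regions the log2 difference was between −0.25 and −0.11 with adjusted p values of 0.683 to 0.899 by limma.

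The best-ranked regions of Dusp2, Dusp6, Dusp8, Dusp10 and Dusp16 held no AP-1 motif. The Dusp16 region, 10140 bp upstream, had 110 and 71 fragments in WT and 148 and 80 in Mapk8-KO. Both of its normalised Mapk8-KO values (2.74 and 2.67) lay above both WT values (2.24 and 2.09), and the log2 difference of −0.32 did not pass the limma test (adjusted p = 0.496). The Dusp6 region, 15356 bp upstream, had 73 and 44 fragments in WT and 62 and 28 in Mapk8-KO, so its difference of 0.42 on the log2 scale ran the other way (adjusted p = 0.464 by limma). Intronic regions of Dusp8 and Dusp10, 10231 and 7692 bp into the genes, had 37 and 38 and 65 and 40 fragments in WT, against 48 and 30 and 77 and 30 in Mapk8-KO. The Dusp2 region, 26426 bp downstream of the start, is itself within 2 kb of the start of another gene and nearest to Adra2b. It was the weakest, with 16 and 15 fragments in WT and 28 and 13 in Mapk8-KO. For the Dusp2, Dusp8 and Dusp10 regions the adjusted p values were 0.756 to 0.977 by limma.

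An AP-1 motif lay within 100 bp of the strongest summit in 15 of the 71 regions (21.1%), against 23.8% of the atlas. All 15 were away from promoters: 0 of the 20 phosphatase regions at any promoter held the motif, against 12.0% of promoter regions in the atlas, and 15 of the 51 others did (29.4% against 28.1%). Of the 15, 9 were called in all libraries. The 6 of these at Dusp1, Dusp5 and Dusp7 were higher in Mapk8-KO and the 3 at Dusp10 and Dusp16 were higher in WT, whereas 38.5% of all AP-1 regions were higher in Mapk8-KO. None of the 9 passed the limma test.

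CRE matches were found in 3 regions (4.23% against 0.773% of the atlas), all at promoters, including those of Dusp1 and Dusp8. In the printed windows the CRE of Dusp1 begins at position −143 and those of Dusp8 at −107 and −63. Of 32851 RefSeq promoters of the same 300 bases, 1.79% held a CRE and 1.63% a CArG box. The ETS motif (CCGGAAG) lay in 1 phosphatase region and in 3.13% of the atlas. Both strands were searched, the 4 motifs were counted separately, and a match is only an occurrence of these letters. RefSeq promoter windows were found for 8 of the 9 genes, Dusp4 being the exception.

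No phosphatase region ranked higher in WT, against 2.65% of all regions called in every library, and 2 ranked higher in Mapk8-KO, against 3.78%. Besides the Dusp5 promoter, the second was an intronic region of Dusp16 at chr6:134751148-134751963, 40916 bp downstream of the start. Its percentiles were 59.2 and 58.3 in WT and 73.3 and 71.1 in Mapk8-KO. Its pileup did not show the same direction, with 45 and 35 fragments in WT and 50 and 27 in Mapk8-KO and a log2 difference of 0.09 (adjusted p = 0.93 by limma). The local background, the other part of fold enrichment, was 4.7 and 3.3 fragments in WT and 4.2 and 2.0 in Mapk8-KO. The count of 2 rose to 13 without WT 1 and to 5 without WT 2 or without Mapk8-KO 2, and the share of all regions rose with it, to 17.6, 7.94 and 13.6%.

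**Figure D3:**
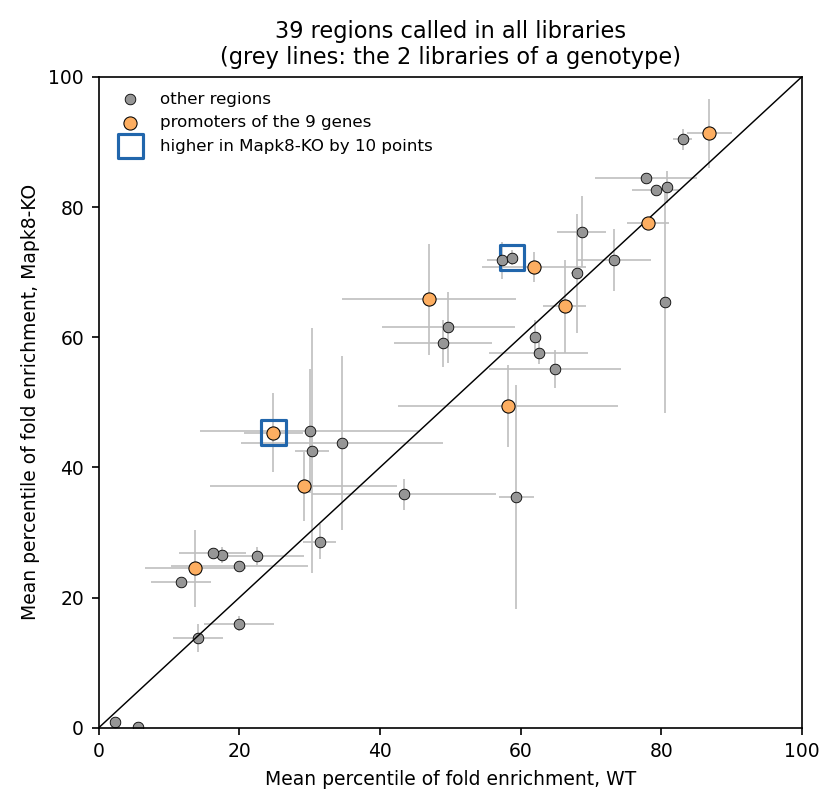
Each point is a phosphatase region called in all 4 libraries, with the mean percentile of its fold enrichment in WT on the horizontal axis and in Mapk8-KO on the vertical axis, and grey lines span the 2 libraries of a genotype. Most of the 39 points lie near the diagonal, and the squares mark the Dusp5 promoter and the intronic Dusp16 region, whose lowest Mapk8-KO percentile exceeded the highest WT percentile by at least 10 points.

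None of the 39 phosphatase regions called in all libraries passed the limma test in either direction, against 0.496% of all regions called higher in WT and 0.11% higher in Mapk8-KO. At an unadjusted p under 0.05 there were 4, or about as large a share as the 11.3% over all regions. These 4 were the Dusp4 and Dusp5 promoters and 2 regions downstream of Dusp10, the latter chosen for mention after their values were seen. The Dusp10 region 47498 bp from the start had 47 and 34 fragments in WT and 37 and 16 in Mapk8-KO, a log2 difference of 0.70 (SE 0.269) and the lowest adjusted p of the 39 (0.255 by limma). Its neighbour at 42487 bp had 35 and 31 fragments in WT and 37 and 12 in Mapk8-KO, a log2 difference of 0.62 (adjusted p = 0.382 by limma). At both regions the normalised pileups of the Mapk8-KO libraries lay below those of the WT libraries, with Mapk8-KO 2 lowest, and both regions hold an AP-1 motif.

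Over the 39 regions the median log2 difference was −0.14, against −0.05 over all regions, and 26 (66.7%) were higher in Mapk8-KO against 57.4% of all. The median was −0.05 against −0.06 over all regions without WT 2, and −0.06 against −0.03 without Mapk8-KO 2, so its place below that of all regions rested on WT 2. By role, 12 of 15 regions of the inducible nuclear genes and 8 of 11 of the ERK-selective genes were higher in Mapk8-KO, whereas 7 of 13 regions of Dusp8, Dusp10 and Dusp16 were higher in WT. The medians of these groups were −0.21, −0.14 and 0.03, and a difference between roles was not tested. Of the 15 tested regions at any promoter, 14 were higher in Mapk8-KO (93.3% against 72.6% of all promoter regions). Of the 24 other regions 12 were (50% against 48.8%). The 95% intervals of single regions reached 0.449 to either side in the median, and 37 of the 39 stayed within 1 log2 unit of 0, and smaller differences were not resolved with 2 libraries a genotype.

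**Figure D4:**
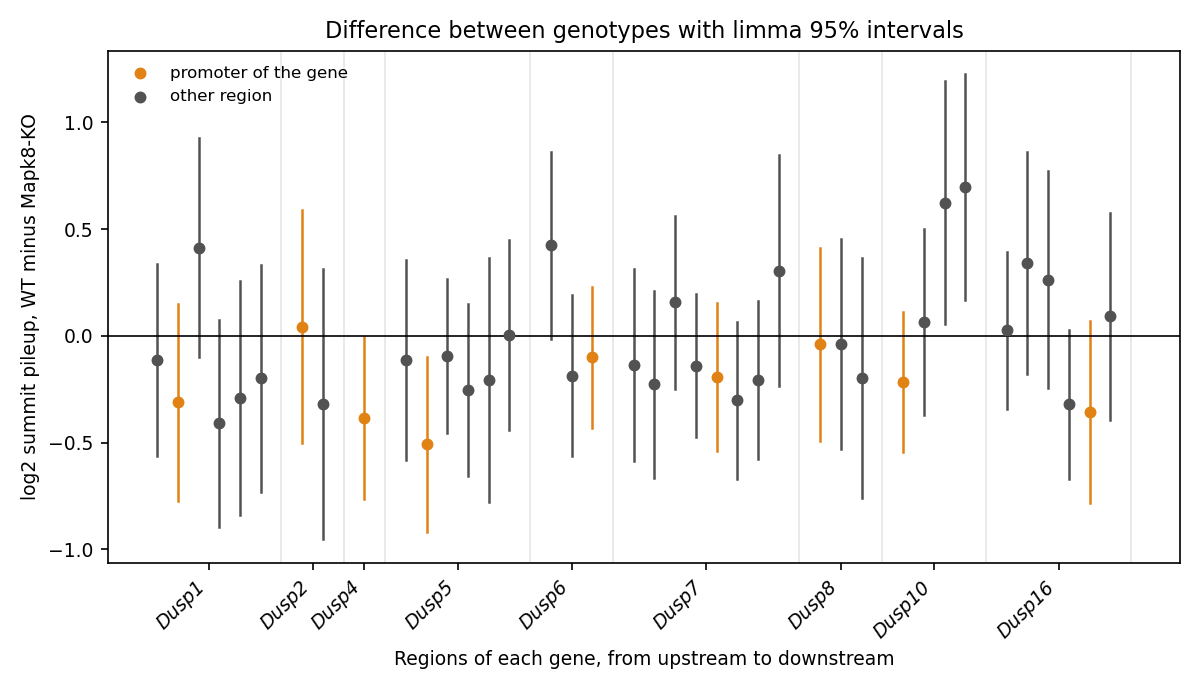
Points give the log2 difference in depth-centred summit pileup, WT minus Mapk8-KO, for the 39 regions called in all libraries, and vertical lines are limma 95% intervals. Most intervals cross 0, the Dusp5 promoter lies lowest at −0.51, and the 2 regions downstream of Dusp10 lie highest at 0.62 and 0.70.

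Fold enrichment and pileup ranked some regions differently, since the local background differed between loci. The background over phosphatase regions was above the library median in each case, with medians of 5.41 against 4.36 fragments in WT 1, 3.91 against 2.88 in WT 2, 6.72 against 4.76 in Mapk8-KO 1 and 4.01 against 2.68 in Mapk8-KO 2. It was highest around Dusp6 and Dusp7, at 3.39 and 2.96 times the library median, and lowest at Dusp2, at 0.591 times. A region 10916 bp upstream of Dusp7, chosen after its values were seen, had 72, 53, 71 and 42 fragments in WT 1, WT 2, Mapk8-KO 1 and Mapk8-KO 2, yet its fold enrichment stood between percentile 0.8 and 2.7 in the 4 lists. A low fold percentile there thus came with a high pileup in every library.

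Related genes of the same pathway were described in the same windows. The 13 other phosphatase genes listed for the pathway, such as Dusp3, Dusp22 and Ppm1d, had 81 regions. None was called in both WT libraries only and 1 in both Mapk8-KO libraries only. Of the 44 called in every library 0 passed the limma test (4 at an unadjusted p under 0.05). The 7 feedback inhibitors of ERK signaling (the Spry and Spred genes and Errfi1) had 48 regions, none called in both libraries of one genotype only, and 0 of 28 passed (4 at an unadjusted p under 0.05). The 10 MAP kinase genes had 53 regions, of which 2 were called in both WT libraries only and 1 in both Mapk8-KO libraries only. Of 26 tested, 1 passed, a region at Mapk10 that was higher in WT (adjusted p = 0.00106 by limma). On log2 fold or without the variance trend 0 of all 40159 regions passed, so this region did not.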

How the data were processed

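ATAC-seq peak lists of 2 WT and 2 Mapk8-KO keratinocyte libraries were analysed. As the study describes, reads were paired and aligned to mm10 with Bowtie2, multiple and poor alignments were removed, and the authors called peaks with MACS2 on whole fragments. The deposited files hold a list per library, and the parameters given name no control library. The submitters' processing notes also name Trimmomatic 0.36, STAR 2.5.3, Picard and SAMtools. No Tn5 shift is stated. The deposited lists give a fold of summit pileup over local background, −log10 p and −log10 q values, a score derived from q and the summit offset, all the authors' own.

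Pileup and background were recovered by solving fold and −log10 p together (at least 99.996% of peaks whole to within 0.05). Total reads are unknown from the lists, so relative depth came from the median ratio of pileups. Genes came from GENCODE and promoters lay within 2 kb of 77237 TSSs. A region ranked higher in a genotype when its lowest percentile of fold there exceeded the highest in the other by 10 points. Log2 pileup, centred on library medians, was tested with limma 3.58.1 (variance trend, Benjamini-Hochberg over all regions, threshold 0.05), after tests on simulated data. DESeq2, which the authors applied to read counts, was not used here. Regions named were each gene's promoter, its best-ranked other region called in all libraries, and every region called in both libraries of one genotype only, past the 10 points or past the limma threshold. Others are marked as chosen after their values were seen. The genes, lists and motifs were chosen with earlier results of these data known. Alternatives covered other windows, annotations, list lengths, thresholds, scalings, a block for the replicate number, and the omission of single libraries.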

Additional observations from a re-analysis of the deposited data

How the results depend on the processing

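Of 95 alternative values, 21, all of them counts, moved beyond the limit set for them, and others moved within the spread between replicates, as given below. The count of phosphatase regions called in both WT libraries only was 2 with lists of equal length, 4 when peaks had to cover 50% of a region, and 1 to 10 when 1 library was left out (9 without WT 2, 10 without Mapk8-KO 1). The count called in both Mapk8-KO libraries only was 1 with the 50% cover and 0 to 3 with 1 library left out. Regions ranked higher in WT numbered 1 with a gap of 5 points, 1 with −log10 p in place of fold, and 1 to 5 with 1 library left out. Regions ranked higher in Mapk8-KO numbered 6 with a gap of 5 points, 0 with 20 points, 1 with −log10 p, 4 with the replicate number as a block, and 3 to 13 with 1 library left out. With 1 library left out, each rule applied only to the libraries that remained. It was thus less strict, and those counts are not like for like with the reported ones. The cause of the other moves was not tested. The difference of 6.5 called regions ranged from −2 to 15 with 1 library left out and changed sign without WT 1 (−1.5) or without Mapk8-KO 2 (−2). The median log2 difference of −0.14 ranged from −0.12 to −0.05 with 1 library left out. No phosphatase region passed the limma test under any alternative that kept every library, with lowest adjusted p values of 0.222 (replicate block) to 0.544 (log2 fold). Over all regions, calls higher in WT and in Mapk8-KO were 199 and 44 as reported, 86 and 8 with centring on median ratios (added after seeing the data, as were RefSeq gene bodies), 26 and 3 with quantile normalisation, 102 and 13 with a mean pileup of at least 20, 0 and 0 on log2 fold (2731 at an unadjusted p under 0.05) or without the variance trend (3987), and 284 and 102 with the replicate block. Fits with 1 library left out hold a genotype of 1 library, whose spread they cannot estimate, so their calls are not given. After centring on library medians, deviations of same-numbered libraries correlated at r = 0.0392 over 40159 regions, which share libraries and are not independent. Centring removes the depth in which same-numbered libraries were alike, so this value cannot decide whether replicate numbers pair the samples.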
